A study of Mus musculus with 12 samples.

Results

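The genes described here are 42 nuclear genes for pyruvate entry, the tricarboxylic acid (TCA) cycle, itaconate synthesis and mitochondrial fatty acid oxidation. They were followed in mouse bone marrow-derived macrophages (BMDM) labelled as wild-type or Baf60a knockout. The genes were listed by symbol, by function and not by a measured value, though with earlier results of these data known. They were matched through the GENCODE M21 annotation to the Ensembl identifiers of the expression table. All 42 were found among 23438 rows and all 42 passed the filter on low values, which kept 11152 genes. Of the 42, 22 belong to pyruvate entry, the cycle and itaconate synthesis, and 20 to fatty acid oxidation.

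BMDM are macrophages grown from bone marrow cells in culture. The series holds 7 wild-type (WT) and 5 Baf60a knockout (KO) libraries, all from primary cells labelled as BMDM differentiation on day 7 and described as atherosclerotic. Baf60a, encoded by Smarcd1, is a subunit of the SWI/SNF complex, which moves nucleosomes. How and in which cells Baf60a was deleted, the driver of any Cre, the treatment behind the word atherosclerotic and the ages of the mice are not stated in the labels. No label ties a library to a mouse, so the p-values below measure the spread between libraries, which may be technical.

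In the TCA cycle, acetyl groups made from pyruvate or fatty acids join oxaloacetate to form citrate and are oxidised to carbon dioxide, which yields NADH for the respiratory chain. Fatty acids reach the mitochondrial matrix as carnitine esters and are shortened in repeated rounds of dehydrogenation, hydration, oxidation and thiolysis. In macrophages the enzyme Acod1 can draw cis-aconitate out of the cycle to make itaconate, and its gene is known for its induction by inflammatory signals.

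Smarcd1 lay between 5.99 and 7.58 TPM (transcript shares scaled to a common total in each library) in the KO libraries. In the WT libraries it lay between 11.6 and 15.6 TPM, with no overlap. Its RNA was thus lower in KO but still present, with a mean of 6.90 TPM against 13.6 TPM in WT. WT libraries 2, 3 and 4 stand apart from the other 9 libraries and this touches nearly every result below. The summed level of 8 fibroblast and smooth muscle markers was 3903 to 9784 TPM in those 3, 113 to 425 TPM in WT 1, 5, 6 and 7, and 190 to 605 TPM in the KO libraries, and 6 of its 7 tested genes lay higher in WT 2, 3 and 4 without overlap. Col1a1, a fibrillar collagen, is present in all libraries at 15.7 TPM or more, while Lum, a matrix proteoglycan, did not exceed 0.12 TPM. All 8 tested neutrophil markers lay lower there (sum 101 to 132 TPM against 1243 to 1613 TPM in the other WT and 1041 to 6495 TPM in the KO libraries). All 4 cycling markers lay higher and 5 of 10 macrophage markers lay lower. Over all tested genes 29.9% lay higher and 28.3% lower in WT 2, 3 and 4 than in WT 1, 5, 6 and 7 without overlap. T and B cell markers summed to at most 0.36 TPM and dendritic cell markers to at most 2.31 TPM in any library. The summed level of the 10 macrophage markers was 15870 to 16388 TPM in KO, below the 25529 to 29360 TPM of WT 1, 5, 6 and 7, and 2 of the 10 fell in KO against those 4. These were Lyz2, lysozyme, from 14635 to 16912 TPM in those WT libraries to 4932 to 5853 TPM in KO (-1.55 on the log2 scale, limma, adjusted p = 5.68e-06), and C1qc, a complement C1q chain (-0.26, limma, adjusted p = 0.0432). Of the 10 macrophage estimates against those 4 WT libraries, 3 were positive and 7 negative. Lyz2 was the most abundant of the 10 in every library, so the sum follows it more than the others. In such bulk RNA, fewer cells of a type and less RNA per cell cannot be told apart, and the part of these markers in the results was not tested. KO is therefore compared with all 7 WT libraries and, beside that, with WT 1, 5, 6 and 7.

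The promoters of 3 genes are shown because their genes carry the main contrasts: Acod1 and Acadm, which moved furthest up and down in WT 2, 3 and 4, and Slc25a20, the 1 member called between KO and WT 1, 5, 6 and 7 (with all WT libraries none was). The stretches lie upstream of the annotated gene, those of Acod1 and Slc25a20 directly and that of Acadm a few bases away, and run 5′ to 3′ on the gene's strand, from RefSeq on GRCm38.p6. Capitals mark matches to AGGTCA (a nuclear receptor half-site, read as TGACCT on the other strand), CCGGAAG (an ETS core) and GGGCGG (a GC box, read as CCGCCC on the other strand).

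Acod1, chr14:103046762-103046976, plus strand: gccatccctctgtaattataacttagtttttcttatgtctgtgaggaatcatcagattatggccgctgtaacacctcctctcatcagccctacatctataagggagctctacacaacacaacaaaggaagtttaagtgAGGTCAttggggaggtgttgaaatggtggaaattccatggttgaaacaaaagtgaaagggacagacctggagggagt

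Acadm, chr3:153944644-153944893, minus strand: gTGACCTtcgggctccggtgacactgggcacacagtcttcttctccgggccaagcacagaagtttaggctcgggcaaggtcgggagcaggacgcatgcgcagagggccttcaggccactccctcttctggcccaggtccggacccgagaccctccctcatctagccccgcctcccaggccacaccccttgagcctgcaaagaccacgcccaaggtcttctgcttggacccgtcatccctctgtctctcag

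Slc25a20, chr9:108661886-108662087, plus strand: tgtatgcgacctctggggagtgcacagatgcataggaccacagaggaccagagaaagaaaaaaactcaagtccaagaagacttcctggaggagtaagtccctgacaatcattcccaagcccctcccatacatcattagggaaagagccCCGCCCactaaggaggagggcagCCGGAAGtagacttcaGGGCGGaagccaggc

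RefSeq promoter windows, read over the 250 bases before the start on both strands, matched 37 of the 42 members with 44 windows. AGGTCA was in 15.9% of these windows and in 14% of all 32851 windows, and CCGGAAG in 6.82% and 6.91%. TGACNNNGC, the core of the antioxidant response element, was in 6.82% and 10.2%. GGGCGG was in 63.6% of the members' windows and 32.7% of all windows, and TATAAA in 2.27% and 12.4%, the 1 member being Acod1, whose match is not within the stretch printed above. A match is a string of letters and not a site.

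Between KO and all 7 WT libraries no step of the cycle or of fatty acid oxidation passed the test. The limma test on log2(TPM + 1), adjusted by Benjamini-Hochberg over all 11152 genes at 0.05, called 0 of the 42 members, where 0.126% of all tested genes were called. At an unadjusted p under 0.05 there were 3 members (7.14%, against 17.5% of all genes). Those 3 were Idh2, the NADP-dependent mitochondrial isocitrate dehydrogenase, at -0.17 on the log2 scale, Cpt1a at -0.13 and Hadha at 0.11. Of the 42 log2 fold changes 10 were positive and 32 negative, with a median of -0.10 against 0.04 over all tested genes. With sample weights 28 were positive.

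Against WT 1, 5, 6 and 7 alone the members lay close to the WT level, and 1 of 42 was called (2.38%, against 2.33% of all tested genes). The member called was Slc25a20, the carnitine-acylcarnitine carrier of the inner mitochondrial membrane, which rose. Here 31 of the 42 fold changes were positive and 11 negative, with a median of 0.04 against 0.05 over all tested genes. Rescaled by median ratio, 20 of the 42 were positive. At an unadjusted p under 0.05 there were 9 members (21.4%, against 18.9% of all genes). The largest fold change of any member was 0.27 on the log2 scale. On the log2(TPM + 1) scale the 95% confidence interval lay within 1.5-fold in both directions for 41 of the 42, the exception being Acod1. With all WT libraries this held for 36 of 42. That scale narrows the folds of low genes such as Pcx, at 0.92 to 1.75 TPM outside WT 2, 3 and 4.

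**Figure D1:**
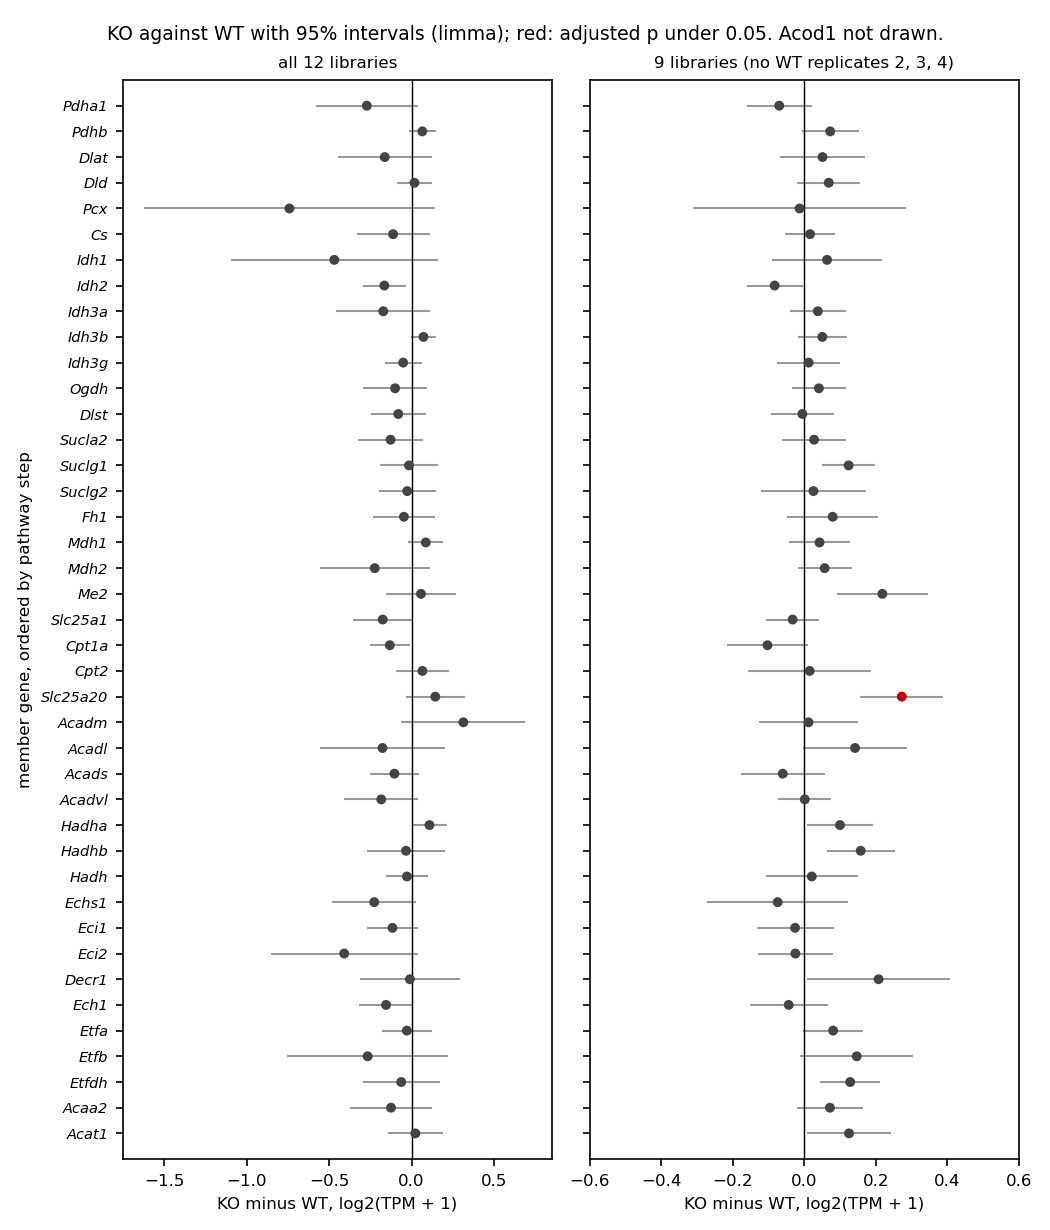
Log2 fold change of KO over WT for the members by step, on log2(TPM + 1), with all 12 libraries and with WT 2, 3 and 4 left out. Points are limma estimates and bars 95% confidence intervals; Acod1 is left out because its interval would set the scale. With 9 libraries the estimates lie at or below 0.27 and only that of Slc25a20 passed the adjusted threshold.

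Slc25a20 was 35.9, 34.4, 31.7, 35.8 and 37.2 TPM in KO 1 to 5 and 27.5, 29.2, 30.2 and 28.2 TPM in WT 1, 5, 6 and 7. Every KO library lay above those 4 WT libraries, while WT 2, 3 and 4 (35.9, 34.9 and 36.2 TPM) lay among the KO libraries. The log2 fold change was 0.27 ± 0.05 (SE; 95% interval 0.16 to 0.39; limma, adjusted p = 0.0294), a 1.21-fold difference, and with all WT libraries it was 0.14 (adjusted p = 0.329). Lyz2, the most abundant macrophage marker, was lower in all KO libraries than in those 4 WT libraries, as given above. Of the 10 macrophage marker estimates 3 were positive and 7 negative. The part of these markers in this difference and those of the next genes was not tested. The call was lost when TPM were rescaled by median ratio (limma, adjusted p = 0.0832) or with a covariate for submission number above 5 or not (0.0580). It was also lost without WT 1, WT 5, WT 7, KO 2 or KO 4 (adjusted p from 0.0618 to 0.1003). The gene lies on chromosome 9, from 108662088 to 108684641 on mm10.

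With Slc25a20, 5 of the 42 members had all KO libraries above WT 1, 5, 6 and 7 (11.9%, against 7.09% of all tested genes), and 0 members had all KO libraries below (against 2.08%). Hadhb, the thiolase subunit of the trifunctional protein, was 43.1 to 45.8 TPM in KO and 36.5 to 41.3 TPM in those WT libraries, a log2 difference of 0.16 (limma, adjusted p = 0.0828). Suclg1, the shared alpha subunit of succinyl-CoA ligase, was 61.2 to 65.0 TPM against 55.3 to 59.3 TPM (0.12, limma, adjusted p = 0.0825). Etfdh, which passes electrons from the electron transfer flavoprotein to ubiquinone, was 25.1 to 26.6 TPM against 22.9 to 24.5 TPM (0.13, limma, adjusted p = 0.105). In Idh3b, a regulatory subunit of NAD-dependent isocitrate dehydrogenase, the gap was the narrowest, with 125.6 TPM in the lowest KO library and 125.55 TPM in the highest of the 4 WT libraries.

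Me2, the mitochondrial malic enzyme, was 33.2, 33.1, 31.8, 35.03 and 28.5 TPM in KO 1 to 5 and 28.5, 26.6, 27.8 and 27.5 TPM in WT 1, 5, 6 and 7. Only KO 5 touched the WT range, at the level of WT 1, and the log2 difference was 0.22 ± 0.06 (SE; limma, adjusted p = 0.0794). Decr1, which reduces dienoyl-CoA from polyunsaturated fatty acids, was 10.4 to 12.4 TPM in KO and 8.32 to 11.8 TPM in those WT libraries (0.21, limma, adjusted p = 0.246). Acadl, a long-chain acyl-CoA dehydrogenase, was 50.7 to 58.5 TPM against 44.2 to 54.7 TPM, and Acat1, a thiolase of short-chain substrates, 23.1 to 26.1 TPM against 21.5 to 24.4 TPM. Both overlapped and neither passed the test.

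Cpt1a, the outer membrane carnitine palmitoyltransferase that limits entry of long-chain fatty acids, was 48.9 to 54.8 TPM in KO and 50.6 to 59.0 TPM in WT 1, 5, 6 and 7 (-0.10 on the log2 scale, limma, adjusted p = 0.312). Its matrix counterpart Cpt2 was 9.28 to 11.6 TPM against 9.74 to 11.9 TPM. The KO and WT libraries overlapped in both, on either side of the carrier that differed. Echs1, the short-chain enoyl-CoA hydratase, varied inside the groups, at 46.9 and 47.5 TPM in KO 1 and KO 4 and 46.8 TPM in WT 6, against 54.4 to 57.4 TPM in KO 2, 3 and 5. KO 1 and KO 4 also had the highest neutrophil marker sums, 6495 and 4532 TPM, and with WT 6 (113 TPM) the lowest fibroblast marker sums, 190 and 273 TPM. The part of those markers in the Echs1 level was not tested.

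The spread between libraries was small for these genes. The median coefficient of variation over the members was 4.23% in the 5 KO libraries and 4.12% in WT 1, 5, 6 and 7, against 7.54% and 7.12% over all tested genes, whose median level was lower (20.7 against 58.1 TPM). In KO 40 of 42 members had a coefficient under 10%, and the summed TPM of the 22 genes around the cycle ran from 1567 to 1579 in KO and from 1505 to 1560 in those WT libraries. For the 20 oxidation genes the sums were 1131 to 1185 and 1068 to 1154 TPM.

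The wider spread lay within the WT group. In WT 2, 3 and 4 the cycle sum was 1927 to 2097 TPM and the oxidation sum 1535 to 1571 TPM, above all other libraries. Since these 3 libraries were set apart by their measured values, what follows is a description with no test. All 3 lay above WT 1, 5, 6 and 7 for 32 of the 42 members (76.2%, against 29.9% of all tested genes), and all 3 lay below for 1, Acadm (2.38%, against 28.3%). The other 9 overlapped. Among the 32 the ratio of medians ran from 1.06 for Hadh, the medium- and short-chain hydroxyacyl-CoA dehydrogenase, to 49.9 for Acod1, with a median of 1.31, and 7 exceeded 1.5. Rescaled by median ratio, 29 members lay higher and 2 lower, the second being Cpt2.

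**Figure D2:**
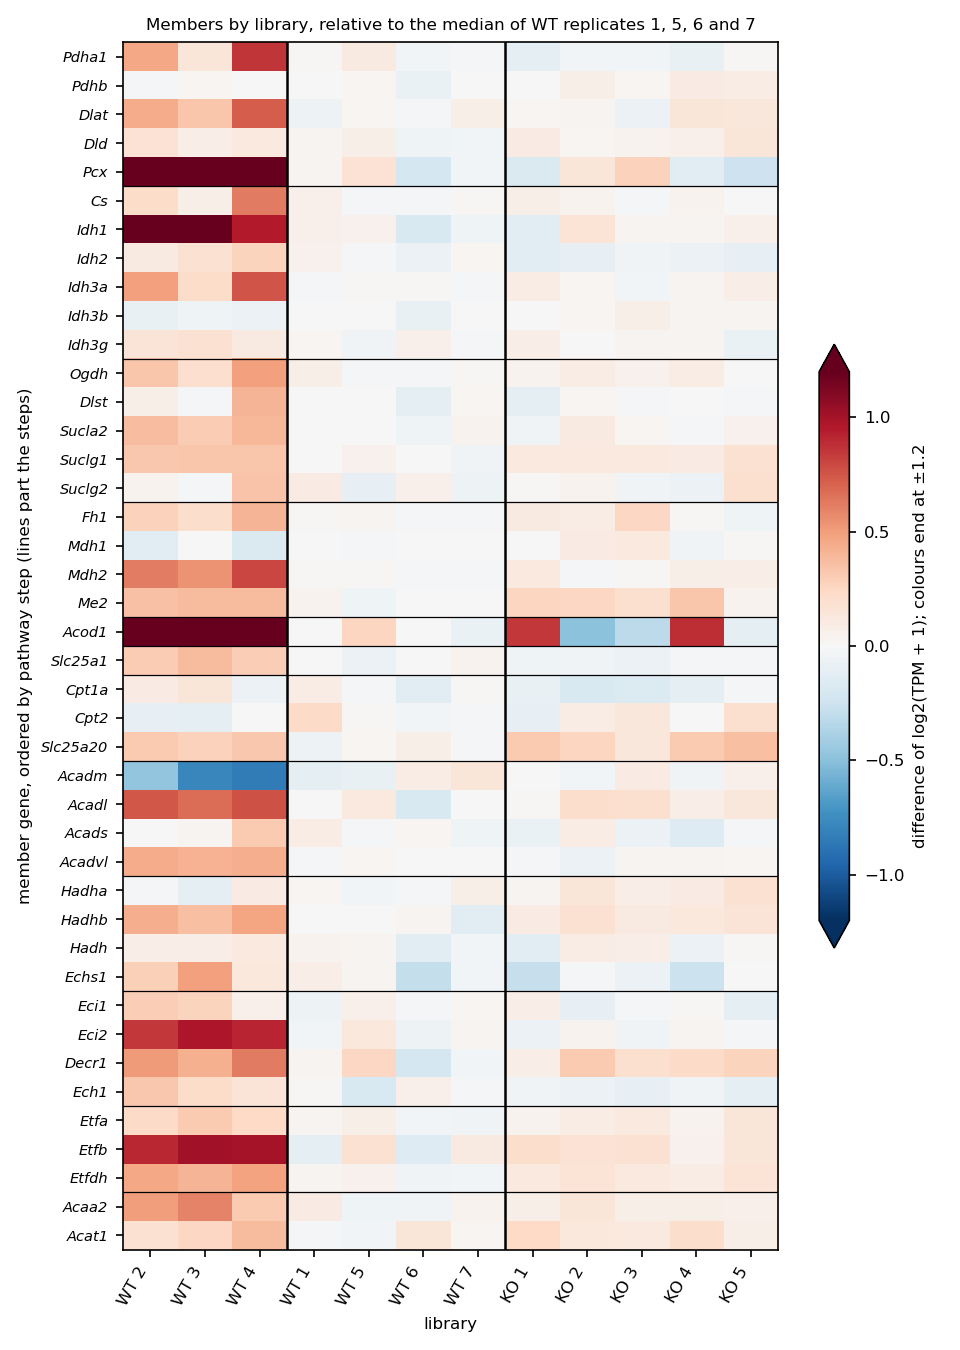
Level of each of the 42 members in the 12 libraries, in order of step, drawn as the difference of log2(TPM + 1) from its median in WT 1, 5, 6 and 7. The columns of WT 2, 3 and 4 differ from the rest in most steps, Acadm is the row that is lower there, and the 5 KO columns resemble WT 1, 5, 6 and 7.

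Pyruvate enters as acetyl-CoA through the pyruvate dehydrogenase complex or as oxaloacetate through pyruvate carboxylase. Pcx, pyruvate carboxylase, was 5.87, 4.71 and 9.01 TPM in WT 2, 3 and 4, compared with 0.96 to 1.56 TPM for the other WT and 0.92 to 1.75 TPM in the KO libraries. The 3 libraries lay above all 9 others. The 12-library fold change of Pcx, -0.74 on the log2 scale (limma, adjusted p = 0.320), went to -0.01 without them.

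Pdha1, the E1 alpha subunit of pyruvate dehydrogenase, encoded on chromosome X from 160122209 to 160138413, was 85.4, 68.2 and 113 TPM in WT 2, 3 and 4. It was 60.4 to 66.5 TPM in the other WT and 57.2 to 62.2 TPM in the KO libraries, so that again the 3 lay above all others. Its partner Pdhb, the E1 beta subunit, overlapped in all groups, at 73.6 to 75.1 TPM in WT 2, 3 and 4 and 70.0 to 75.4 TPM in the other WT. The later subunits Dlat (E2) and Dld (E3) both lay higher in WT 2, 3 and 4, at 46.0 to 60.4 and 62.9 to 67.1 TPM, against 34.6 to 38.2 and 57.2 to 62.6 TPM.

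At the citrate step Cs, citrate synthase, was 114, 103 and 151 TPM in WT 2, 3 and 4 and 96.0 to 101 TPM in the other WT, with WT 4 far above WT 3. Idh1, the cytosolic NADP-dependent isocitrate dehydrogenase, was 127, 133 and 98.6 TPM in WT 2, 3 and 4, 44.4 to 52.8 TPM in the other WT and 46.1 to 56.8 TPM in KO. The gap between the groups was wider than either group. Idh2 was 107 to 119 TPM in WT 2, 3 and 4 and 93.99 to 103 TPM in the other WT, and Slc25a1, which exports citrate, 76.8 to 81.5 against 59.3 to 64.4 TPM.

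The NAD-dependent enzyme did not move as a unit: its catalytic subunit Idh3a was 53.3 to 77.6 TPM against 45.1 to 46.0 TPM, Idh3g 106 to 112 against 95.2 to 102 TPM, and Idh3b overlapped (118 to 120 against 118 to 126 TPM). At the next step Ogdh, the E1 of oxoglutarate dehydrogenase, was 70.6 to 86.8 TPM against 60.8 to 64.6 TPM, and its E2 partner Dlst overlapped. Of succinyl-CoA ligase, Suclg1 (71.5 to 72.2 TPM) and the ADP-forming beta subunit Sucla2 (65.3 to 70.0 against 50.7 to 54.4 TPM) lay higher. The GTP-forming beta subunit Suclg2 overlapped.

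Fh1, fumarase, was 39.7 to 45.7 TPM in WT 2, 3 and 4 and 33.6 to 35.1 TPM in the other WT. The malate dehydrogenases parted: mitochondrial Mdh2 was 340, 323 and 387 TPM against 219 to 224 TPM, and cytosolic Mdh1 overlapped, at 138 to 154 TPM against 153 to 156 TPM. Me2 was 35.6 to 36.4 TPM against 26.6 to 28.5 TPM. KO libraries reached 241 TPM for Mdh2 and 35.03 TPM for Me2, below WT 2, 3 and 4 in both.

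Acod1, which makes itaconate from cis-aconitate, had the widest range of the members as a fold of its lowest level. It was 62.2, 76.4 and 37.3 TPM in WT 2, 3 and 4, 1.24, 1.68, 1.25 and 1.13 TPM in WT 1, 5, 6 and 7, and 3.04, 0.60, 0.81, 3.15 and 1.09 TPM in KO 1 to 5. WT 2, 3 and 4, the libraries with the lowest neutrophil marker sums (101 to 132 TPM), lay above all others. KO 1 and KO 4, with the highest such sums (6495 and 4532 TPM), lay above the other KO libraries. The part of those markers in the Acod1 level was not tested. The 12-library fold change was -1.86 ± 1.06 on the log2 scale (SE; limma, adjusted p = 0.328) and reversed to 0.12 ± 0.30 (SE; limma, adjusted p = 0.864) without those 3, and to -0.05 or -0.06 when KO 1 or KO 4 was then left out. The gene lies on chromosome 14, from 103046977 to 103056573.

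**Figure D3:**
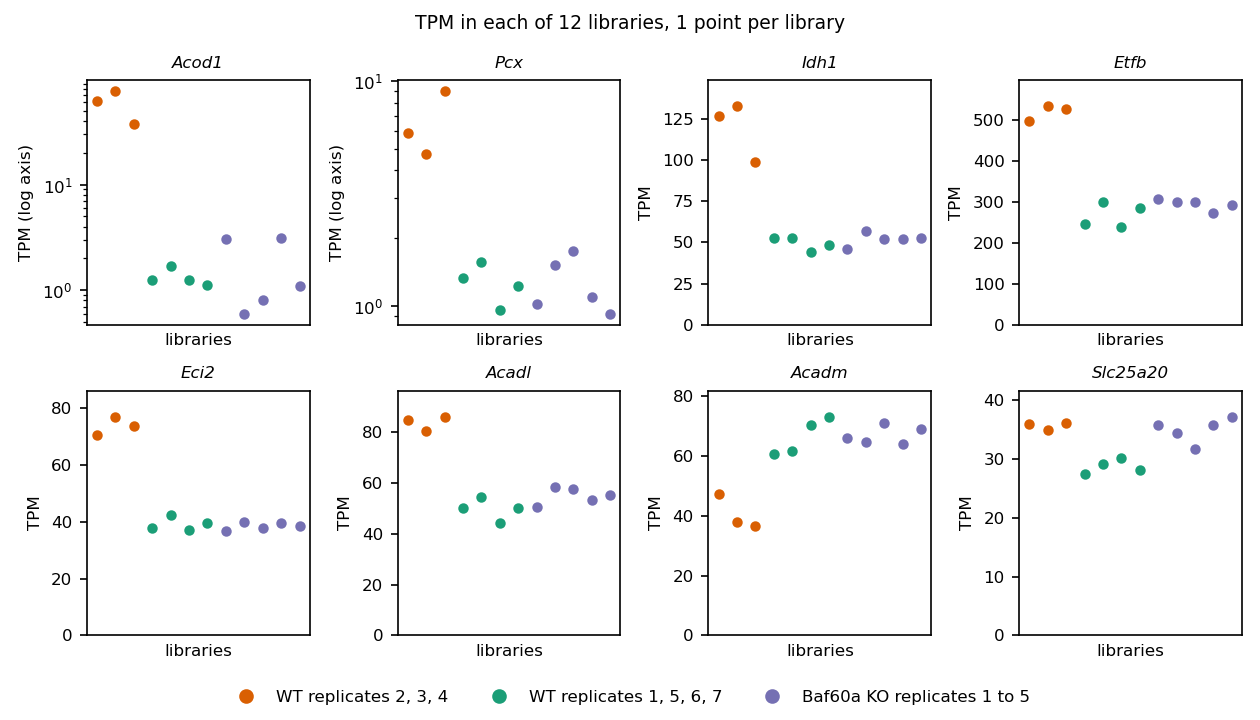
TPM by library (log axis for Acod1 and Pcx) for the members that lay furthest above the other WT libraries in WT 2, 3 and 4 (Acod1, Pcx, Idh1, Etfb, Eci2, Acadl), for Acadm, the 1 that lay below, and for Slc25a20. Each point is 1 library. The KO points lie near those of WT 1, 5, 6 and 7, except for Slc25a20 and Acod1. For Slc25a20 all KO points lie above that WT range. For Acod1 KO 1 and KO 4 lie above and KO 2, 3 and 5 below it.

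In the carnitine shuttle Slc25a20 lay higher in WT 2, 3 and 4, as given above, and Cpt1a (52.8 to 61.3 TPM) and Cpt2 (9.22 to 9.95 TPM) overlapped with the other WT. The acyl-CoA dehydrogenases, which start each round and differ in chain length, went different ways. Acadl was 85.02, 80.6 and 86.1 TPM in WT 2, 3 and 4 against 44.2 to 54.7 TPM, and Acadvl, for very long chains, 80.7 to 82.3 against 59.1 to 61.2 TPM. Acadm, for medium chains, was 47.2, 37.9 and 36.4 TPM in WT 2, 3 and 4, 60.6, 61.7, 70.4 and 73.0 TPM in WT 1, 5, 6 and 7, and 63.9 to 70.8 TPM in KO. It was thus lowest where the long-chain enzymes were highest. Acads, for short chains, overlapped. In all 4 the KO libraries overlapped with WT 1, 5, 6 and 7. Acadm lies on chromosome 3, from 153922357 to 153944632.

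The trifunctional protein, which carries out the last 3 steps on long chains, parted between its subunits. Hadhb was 54.8, 51.9 and 56.2 TPM in WT 2, 3 and 4 against 36.5 to 41.3 TPM, and Hadha overlapped, at 51.9 to 60.4 against 54.9 to 59.0 TPM. Echs1 was 62.6 to 80.9 TPM against 46.8 to 60.5 TPM. Of the thiolases, Acaa2 was 49.7 to 60.8 TPM against 38.3 to 42.7 TPM and Acat1 25.0 to 28.8 against 21.5 to 24.4 TPM.

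The auxiliary enzymes that handle unsaturated chains all lay higher. Eci2, an enoyl-CoA isomerase, was 70.6, 76.9 and 73.8 TPM in WT 2, 3 and 4, 37.0 to 42.3 TPM in the other WT and 36.8 to 40.0 TPM in KO. Its relative Eci1 was 37.2 to 43.9 TPM against 34.1 to 37.0 TPM, Decr1 13.5 to 15.6 against 8.32 to 11.8 TPM and Ech1 84.9 to 95.5 against 67.2 to 79.7 TPM. Eci2 was the one whose WT 2, 3 and 4 values lay furthest from the rest.

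Electrons from the dehydrogenases pass through the flavoprotein of Etfa and Etfb to Etfdh. Etfb was 498, 534 and 528 TPM in WT 2, 3 and 4, 246, 300, 238 and 286 TPM in WT 1, 5, 6 and 7 and 274 to 306 TPM in KO, which made it the most abundant member in all 12 libraries. Etfa was 114 to 120 TPM against 93.8 to 101 TPM, and Etfdh 31.5 to 33.2 against 22.9 to 24.5 TPM. All 3 genes lay higher there, Etfb by more than its partner. For 19 of the 42 members the order within the 3 was WT 3, then WT 2, then WT 4 (45.2%, against 40.1% of all tested genes), the order of their fibroblast marker sums, and for 8 members (19.0%, against 21.6%), Acod1 and Idh1 among them, the order was the opposite.

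Ratios of partner genes within a library do not depend on the TPM total. An exact two-sided permutation test over the libraries called 0 of 10 ratios between KO and WT after adjustment over the 10, with 12 or with 9 libraries, and 1 had an unadjusted p under 0.05 in each. That ratio was Pdha1 over Pdhb, 0.771 ± 0.0271 (SD, n = 5) in KO and 0.853 ± 0.0251 (SD, n = 4) in WT 1, 5, 6 and 7. Every KO library, at 0.727 to 0.797, lay below every WT library, at 0.826 to 1.52. The log2 difference was -0.14 with 9 libraries (exact permutation p = 0.00794, the smallest those libraries allow, adjusted 0.0794) and -0.34 with 12 (exact permutation p = 0.0202, adjusted 0.202). With 9 libraries a ratio alone at that smallest p could not pass 0.05 after adjustment over the 10. The 0 called there thus does not decide on any single ratio.

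Between WT 2, 3 and 4 and the other WT libraries 7 of the 10 ratios did not overlap. Etfa over Etfb was 0.216 to 0.228 against 0.329 to 0.403, with 0.324 to 0.365 in KO. Hadha over Hadhb was 0.999 to 1.07 against 1.33 to 1.61, and Mdh1 over Mdh2 0.357 to 0.477 against 0.682 to 0.713. Idh1 over Idh2 went the other way, at 0.830 to 1.19 against 0.473 to 0.539.

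**Figure D4:**
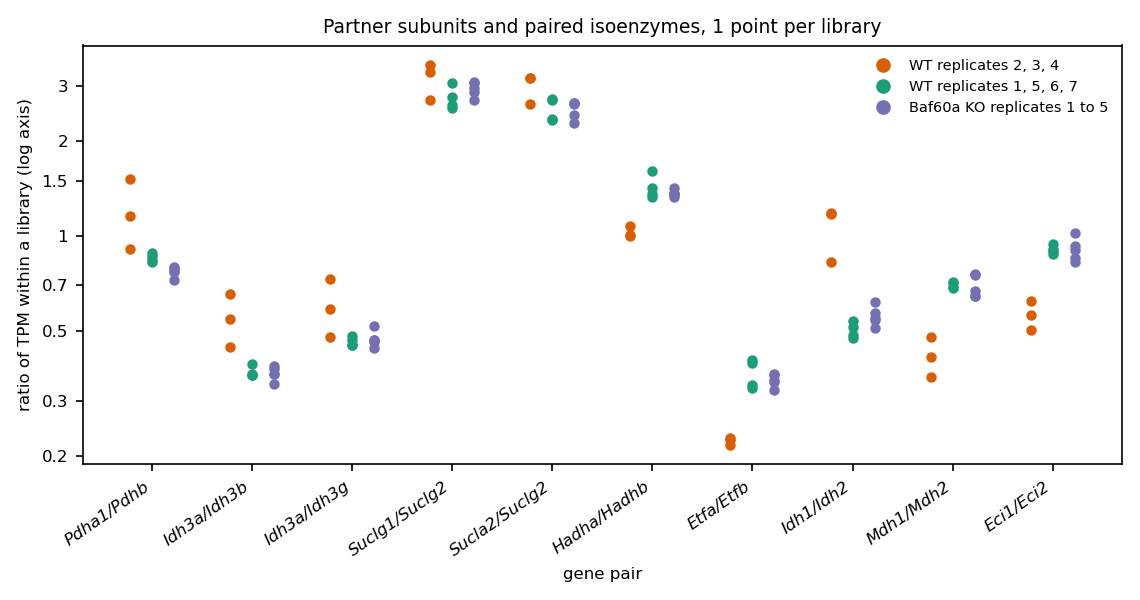
Ratio of the TPM of 10 partner pairs in each library. Every KO point for Pdha1 over Pdhb lies below every WT point, and WT 2, 3 and 4 are separated from the other WT libraries in 7 of the 10 pairs.

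Of 98 other genes listed for these pathways, 87 could be tested. In the 12-library fit limma called 0 of the 87, where 0.126% of all tested genes were called. At an unadjusted p under 0.05 there were 16 (18.4%, against 17.5% of all tested genes). With 9 libraries it called 1 higher and 1 lower of 87, where 2.33% of all tested genes were called. In WT 2, 3 and 4, 31 of the 87 lay higher and 22 lower without overlap, where 29.9% and 28.3% of all tested genes did. Tlr2, a receptor for bacterial lipoproteins listed among the inducers of Acod1, fell in KO, at 26.5 to 36.7 TPM against 44.0 to 57.5 TPM in WT 1, 5, 6 and 7 (-0.65 on the log2 scale, limma, adjusted p = 0.0285). This call was lost without WT 1, WT 5, WT 7, KO 2 or KO 3 (limma, adjusted p from 0.0626 to 0.0750). It was also lost with no filter on low values (0.0566) and with the covariate for submission number above 5 or not (0.0577).

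By list, the genes that lay apart in WT 2, 3 and 4 without overlap were counted, against 29.9% higher and 28.3% lower over all tested genes; the lists were not compared by a test. Of 15 other cycle and anaplerotic enzymes 6 lay higher and 1 lower, and of 12 other mitochondrial acyl-CoA enzymes 5 and 1. Of 9 genes of fatty acid activation 3 lay higher and 5 lower, the lower ones being Acsl1, Acsl3, Acsl4, Acsl5 and Crat. Of 12 peroxisomal oxidation genes 4 and 4, of 13 regulators 3 and 4, of 10 genes of pyruvate transport and dehydrogenase control 4 and 3, of 7 mitochondrial mass markers 4 and 1, of 6 itaconate partners and inducers 2 and 2, and of 3 ketone body enzymes 0 and 1.

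Pdk4, a kinase that switches off pyruvate dehydrogenase, was 33.4, 23.2 and 73.8 TPM in WT 2, 3 and 4 and 0.26 to 1.18 TPM in the other 9 libraries. Acly, which cleaves exported citrate, was 77.1 to 97.0 TPM in WT 2, 3 and 4 and 78.5 to 86.8 TPM in the other WT. Pdk4 thus lay apart in the same 3 libraries as Pdha1 and Cs, and Acly overlapped.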

How the data were processed

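The 7 WT and 5 KO RNA libraries were sequenced as paired 51-base reads per the labels' protocols. The authors deposited 1 table of TPM per gene; bcl2fastq, Salmon 1.2.0 and the build mm10 are named per the submitters' processing notes, and no source used here gives the strand handling, transcript summing or annotation release. TPM keep no depth, so no counting error could be computed, and the deposited columns sum to 940127 to 947987. The mitochondrially encoded share was 0.738% in WT 4 and 1.27% to 1.58% in the other libraries. 

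Genes reaching 1 TPM in 5 or more libraries were tested on log2(TPM + 1) with limma 3.58.1 in R 4.3.3 (trend, Benjamini-Hochberg over all of them), after the script was tested on simulated data. Fold changes on this scale understate those of low genes. Ratios were tested by exact permutation. Genes given by library were chosen by rule: Acod1, members called, the 8 largest fold changes per comparison, and the 6 furthest above and below in WT 2, 3 and 4, with Pdk4, Acly and the gene called lower among the other lists; Cs, Mdh2 and the ranges of the remaining members complete their steps. Members, lists and the 9-library set were chosen with earlier results of these data known. Samples were grouped by title. Other scalings, filters, pseudocounts, sample weights, a submission covariate, a replicate block and leaving out libraries were tried as alternatives. The submission covariate marked whether the number ending a library's deposited column name was above 5. Some values the rule would name are not reported here.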

Additional observations from a re-analysis of the deposited data

Results flagged for a closer look

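Of 106 groups of 4 or more libraries checked over members and ratios, 8 held a value far from the others of its group by Dixon's criterion, where chance alone gives about 1 in 20. Among the WT libraries WT 4 was high for Cs (151 TPM), Dlst (129 TPM), Acads (55.5 TPM) and Suclg2 (26.6 TPM). WT 6 was low for Pdhb (70.0 TPM) and WT 1 was high for Cpt2 (11.9 TPM). Among the KO libraries KO 2 was high for Acaa2 (44.2 TPM) and KO 5 for Suclg1 (65.0 TPM).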

How the results depend on the processing

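The count of members called with 12 libraries was 0 and became 2 (Me2, Slc25a20) with sample weights and 1 without WT 2, 3 and 4; leaving out each library in turn gave 0 to 0. With 9 libraries it was 1 and became 0 with median-ratio scaling, 0 with submission number above 5 or not as covariate, 3 with sample weights (adding Me2 and Hadhb) and 4 at a threshold of 0.1 (adding Suclg1), with 0 to 2 when each library was left out. Same-numbered libraries had deviations correlated from -0.224 to 0.222 with 12 libraries, and at -0.281 and 0.262 for numbers 1 and 5 with 9. These values do not settle whether replicate numbers pair the libraries. With the replicate block 0 members were called with 12 and 0 with 9 libraries (of which only 4 share a number). The same held in the same libraries with no replicate block, a comparison chosen after seeing the data. Scaling to nuclear genes, no filter, a minimum of 5 TPM and a pseudocount of 0.1 left both counts as they were. Members lying lower in WT 2, 3 and 4 became 2 with median-ratio scaling. Among the 8 members with the largest fold changes with 12 libraries, directions reversed for Acod1, Idh1 and Etfb. Acod1 went to 0.12 without WT 2, 3 and 4. With 9 libraries Acod1 went from 0.12 to -0.049 without KO 1 and -0.059 without KO 4, with -0.059 to 0.29 over all libraries left out in turn. Idh1 went to 0.0021 with sample weights and 0.064 without WT 2, 3 and 4, and Etfb to 0.080 and 0.15. Other members also reversed without WT 2, 3 and 4, among them Hadhb (-0.03 to 0.16) and Acadl (-0.18 to 0.14). Positive fold changes went from 10 of 42 with 12 libraries to 31 with 9. The cause was not tested. Median-ratio scaling lowered the positive members from 31 to 20 of 42 with 9 libraries and from 10 to 8 with 12 (28 with sample weights), and over all genes turned 180 higher and 80 lower calls into 83 and 138. The depth behind each TPM is unknown, and 5 against 4 libraries limit what could be called.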
